A study of Homo sapiens with 17 samples.

Results

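COX1, COX2, and COX3 are the 3 mitochondrial genes that encode subunits of cytochrome c oxidase, and they were followed here through 17 J2 RIP-seq libraries of lung adenocarcinoma cells. They were taken by name from the annotation, where they are 3 of 37 genes and 3 of 13 protein-coding genes. Cytochrome c oxidase is the last enzyme of the respiratory chain, where electrons from cytochrome c reduce oxygen to water. COX1 carries the catalytic center with its hemes and a copper ion, COX2 carries the copper site that receives electrons from cytochrome c, and COX3 completes the mitochondrially encoded core. All 3 messages are read from the heavy-strand promoter side of mtDNA as pieces of a long polycistronic RNA, from which the flanking tRNAs are cut out, and RNA copied from the opposite strand can pair with them into mitochondrial double-stranded RNA (mtdsRNA).

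J2, an antibody that binds double-stranded RNA, was used to pull RNA from lysates of H1437, H23, and PC9, which are established human lung adenocarcinoma cell lines. The recovered RNA was polyadenylated, amplified as cDNA, and sequenced as nanopore long reads, which were mapped to the mitochondrial genome (ChrMT) alone. Each line had 3 untreated libraries (replicates 1, 2, and 3). Each line also had 1 library treated with IMT1, an inhibitor of the mitochondrial RNA polymerase, beside 1 library without it (replicate 4). H23 had 1 library with ADAR1 knockdown (KD), meant to lower an enzyme that edits double-stranded RNA, beside 1 library without it (replicate 5). The labels give no dose, time, or control agent. Replicates 4 and 5 carry no control label and were read as controls from the names of their alignments, while the paper's text describes a nontargeting siRNA as the control of the knockdown. Nothing in the labels says that replicates came from separate cultures, while the paper's legend counts each of 3 points per line as an independent experiment. Each P measures the spread between these libraries, which may be technical in part. The libraries held 37113 to 6295486 total reads, and 1.14% to 47.2% of these mapped to ChrMT. In H1437 replicate 1, PC9 replicate 1, and the ADAR1 KD library, 18, 20, and 11 of the 22 tRNA gene rows were at 0, and results were also computed without replicate 1 of all 3 lines. Groups of 3 against 3 libraries cannot give an exact permutation P below 0.1.

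COX1 lies at positions 5904 to 7445 of ChrMT (1542 bases), after the tRNA gene TRNY and directly before TRNS1, both of which are on the other strand. COX2 lies at 7586 to 8269 (684 bases), between TRND and TRNK. COX3 lies at 9207 to 9990 (784 bases), overlaps ATP6 by 1 base, and is followed directly by TRNG. All 3 are on the plus strand and have no intron. The study designed oligos against COX1 and COX3, which are shown because they are the sequences by which these 2 genes were measured or amplified in its other assays. The COX1 pair is named for the heavy and the light strand, and the COX3 pair marks an end of 2 amplified stretches of mtDNA.
COX1, named for the heavy strand: gccataacccaataccaaacg
COX1, named for the light strand: ttgaggttgcggtctgttag
COX3, forward oligo: ccttttaccactccagcctagcc
COX3, reverse oligo: ctcctgatgcgagtaatacggatgt

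Each gene was counted on 2 rows of the annotation with the same start and end, a gene row and a coding (CDS) row. The CDS row held at least as many reads as the gene row in each library. The deposited counts fit a scheme in which a read that touches more than 1 feature of the same kind is left out: the count of a gene row never passed that of the CDS, rRNA, or tRNA row of its interval in 629 of 629 comparisons. Under that scheme, a read that runs from COX3 into TRNG is kept on the CDS row of COX3 and lost from its gene row. The gene rows are the main measure here, and the CDS rows are given beside them. Because only ChrMT was in the alignment, reads of nuclear copies were not set apart. RefSeq lists 58 nuclear pseudogenes named for COX1, 34 for COX2, and 47 for COX3.

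In the untreated libraries, reads on all 3 genes were most frequent in H23 relative to total reads. COX1 gene-row reads per 1000000 total reads were 204, 723, and 158 in H1437 replicates 1, 2, and 3, were 1398, 2314, and 4728 in H23, and were 81.8, 1163, and 205 in PC9. The mean of H23 (2813 ± 1720, SD, n = 3) was 7.78 times that of H1437 (362 ± 314) and 5.82 times that of PC9 (483 ± 592). Each H23 library exceeded all libraries of H1437 and PC9, but by a small margin over PC9 replicate 2. COX2 read counts per 1000000 total reads were 264, 415, and 240 in H1437, 2706, 1496, and 2845 in H23, and 184, 970, and 194 in PC9. Again each H23 library lay above each library of H1437 and PC9, with a mean of 2349 ± 742 in H23 that was 7.66 and 5.23 times those of the other lines (SD, n = 3).

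On the gene rows, COX3 showed the widest gap. It had 81.3, 138, and 44.3 gene-row reads per 1000000 total reads in H1437, 556, 1360, and 1385 in H23, and 25.9, 250, and 40.1 in PC9. The mean of H23 (1100 ± 472, SD, n = 3) was 12.5 times that of H1437 and 10.4 times that of PC9, and no library of H23 overlapped the other lines. The numbers behind the smallest of these values are low, with 13 COX3 reads in PC9 replicate 1 and 29 and 30 in replicate 3 of PC9 and H1437.

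**Figure D1:**
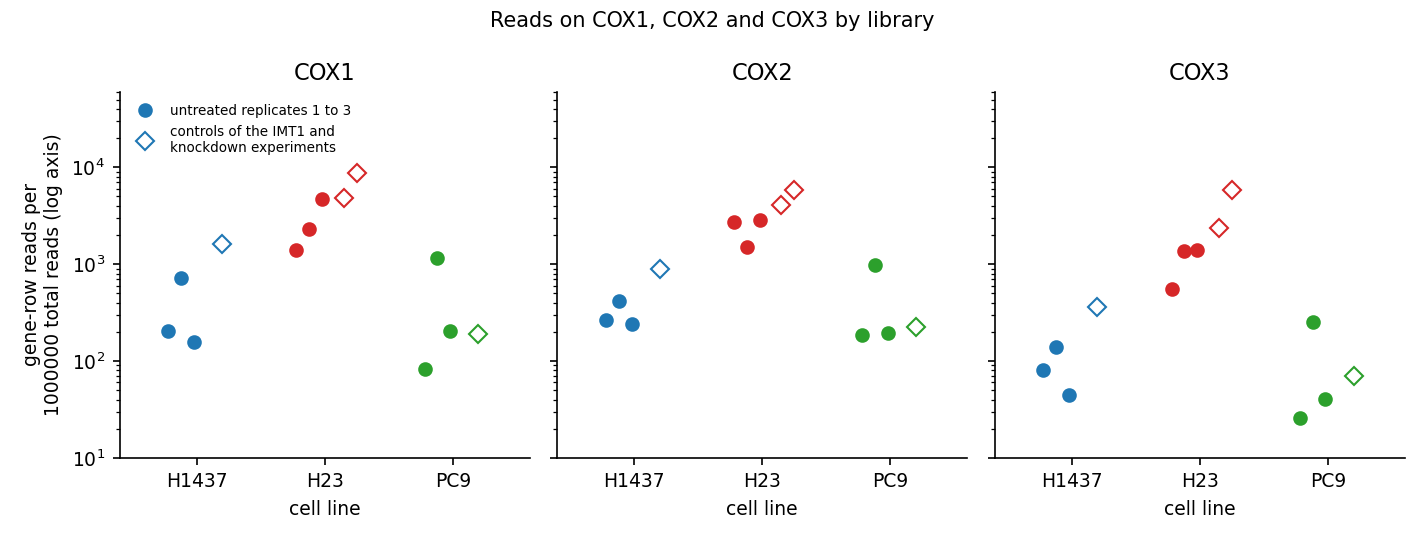
Gene-row reads per 1000000 total reads (log axis) of COX1, COX2, and COX3 in each untreated or control library, by cell line. Filled circles are untreated replicates 1 to 3 and open diamonds the controls of the IMT1 and knockdown experiments. The H23 circles lie above the circles of the other lines in all 3 panels.

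An exact permutation test across the 3 lines, on the F statistic, gave P = 0.0286 for COX1, 0.0357 for COX2, and 0.0357 for COX3 (two-sided, n = 3 per line). After Benjamini-Hochberg adjustment over the 37 genes each was 0.0881, so that none passed. All 3 genes had an unadjusted P below 0.05, as did 43.2% of the 37 genes. Likewise, each H23 library lay above each H1437 library for 48.6% of the 37 genes and above each PC9 library for 45.9%, and above both for 15 of the 37. Among the other 10 protein-coding genes, 10 were apart from H1437 and 8 from PC9 in this way, and the 3 genes were thus not set apart from the other protein-coding genes by this measure. H1437 and PC9 overlapped for all 3 genes, with exact permutation P values of 0.8 for COX1, 1 for COX2, and 1 for COX3 (n = 3 per line). ChrMT held 3.03% to 6.63% of all reads in untreated H1437 libraries, 11.0% to 24.4% in H23, and 1.89% to 7.45% in PC9. Per 1000000 mapped reads the gaps were smaller, with log2 ratios of the H23 mean to the H1437 mean of 0.91, 1.097, and 1.58. The adjusted exact permutation P values across lines were then 0.595, 0.581, and 0.182. COX1 in replicate 2 of PC9 (15620) and H1437 (15165) then lay above H23 replicates 1 and 2 (12684 and 13612.5). COX2 in PC9 replicate 2 (13021) lay above H23 replicates 2 and 3 (8801 and 11675). COX3 stayed apart, at 5044 to 7999 in H23, up to 2906 in H1437, and up to 3359 in PC9. Relative to total reads with the control libraries added (4, 5, and 4 libraries), the adjusted exact permutation P values were 0.0309, 0.0166, and 0.0169. Of all 37 genes, 43.2% passed this test. The H1437 control of the IMT1 experiment, with 1613 COX1 reads per 1000000 total reads, then lay above H23 replicate 1.

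On the CDS rows, COX1 reads per 1000000 total reads were 396, 1962, and 354 in H1437, 3156, 3826, and 10473 in H23, and 168, 3395, and 492 in PC9, so that PC9 replicate 2 lay within the H23 range. COX2 reached 304, 1024, and 308 in H1437, 3033, 2814, and 3741 in H23, and 213, 1414, and 336 in PC9. COX3 reached 421, 299.7, and 162 in H1437, 957, 1777, and 1919 in H23, and 192, 731, and 171 in PC9. On these rows H23 lay apart from both other lines for COX2 and COX3. It lay above both for 12 of all 37 genes and for 6 of the other 10 protein-coding genes. Taken line by line, it lay above H1437 for 48.6% of the 37 and above PC9 for 45.9%. The ratio of the H23 mean to the H1437 mean was 6.44, 5.86, and 5.27 for COX1, COX2, and COX3, and the ratio to the PC9 mean was 4.30, 4.88, and 4.25, so that COX3 had the narrowest gap here and the widest on the gene rows.

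The same counts were fitted across all genes with edgeR's quasi-likelihood test. The SE printed with each edgeR value was back-calculated, as the log2 fold change divided by the square root of the F statistic. A change smaller than this SE therefore only restates a small F. Scaled to total reads, the log2 fold change of H23 over H1437 was 2.96 ± 1.38 (SE) for COX1, 2.94 ± 1.20 for COX2, and 3.64 ± 1.40 for COX3. The edgeR adjusted P values were 0.171, 0.151, and 0.136, and 0% of the 35 genes tested were called. Unadjusted, 2 of the 3 genes and 25.7% of all genes had an edgeR P below 0.05. H23 over PC9 gave 2.54 ± 1.36, 2.39 ± 1.17, and 3.38 ± 1.39 (adjusted P 0.252, 0.242, and 0.178 by edgeR), again with 0% called. Unadjusted, 1 of the 3 genes and 20% of all genes passed there. Among the edgeR fits that left out 1 library, only that without PC9 replicate 2 gave calls. It called 9 of 35 genes over H1437, with COX2 and COX3 among them (2.94 and 3.64, adjusted P 0.0197 for both). Over PC9 it called 12 of 35, with all 3 among them (4.29, 3.64, and 5.05, adjusted P 0.0304, 0.0145, and 0.0145). Other settings gave calls with all libraries kept, as listed in the closing section. The median log2 fold change was 2.96 over the 3 genes, 3.59 over the 12 protein-coding genes tested, and 1.98 over all genes for H23 over H1437. It was 2.54, 3.38, and 2.49 for H23 over PC9. H1437 over PC9 gave -0.42 ± 1.29, -0.55 ± 1.11, and -0.26 ± 1.27, all smaller than their errors.

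Scaled instead by TMM to the other mitochondrial genes, no difference between lines exceeded its back-calculated SE in the main edgeR fit. Values and signs depended on the processing, as given in the closing section. H23 over H1437 was 0.67 ± 0.95 (SE) for COX1, 0.43 ± 1.02 for COX2, and 0.91 ± 0.99 for COX3, beside a median of 1.19 over the 12 protein-coding genes tested. The COX3 value was 2.14 ± 0.70 without the filter on low counts, 2.72 ± 0.89 with the control libraries added, and -0.65 ± 1.02 on the CDS, rRNA, and tRNA rows, none of which passed (edgeR adjusted P 0.0705, 0.0535, and 0.701). H23 over PC9 was 0.29 ± 0.94, -0.29 ± 1.02, and 0.87 ± 0.99 on this scale, and H1437 over PC9 was -0.37 ± 0.94, -0.72 ± 1.03, and -0.05 ± 0.99. None of the 35 genes was called in these 3 comparisons (0%), and none had an unadjusted edgeR P below 0.05, while DESeq2 called 4, 2, and 0 genes. The DESeq2 SEs for H23 over H1437 were smaller, at 0.30, 0.54, and 0.30 for COX1, COX2, and COX3. With H1437 and PC9 fitted alone and their replicate numbers as a block, edgeR called 10 of 33 genes (9 higher in H1437 and 1 lower), none of them COX1, COX2, or COX3. The common dispersion was 1.70 on this scale and 2.18 on that of total reads.

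The 3 genes also differed from each other within libraries. Per base of gene, COX2 had more gene-row reads than COX1 in 9 of 9 untreated libraries. This order rests on dividing by gene length, 684 bases for COX2 and 1542 for COX1. Undivided, COX2 had 1664, 219, and 163 gene-row reads in H1437, 331, 900, and 1686 in H23, and 92, 531, and 140 in PC9. COX1 had 1284, 381, and 107 in H1437, 171, 1392, and 2802 in H23, and 41, 637, and 148 in PC9. COX1 thus had more reads in replicate 2 of each line and in replicate 3 of H23 and PC9, and COX2 in the others. The per-base ratio was 2.92, 1.30, and 3.43 in H1437, 4.36, 1.46, and 1.36 in H23, and 5.06, 1.88, and 2.13 in PC9. It was above 1 in each library and varied as much within a line as between lines. The mean log2 ratio was 1.24 ± 0.74 (SD, n = 9), a ratio of 2.36, with a two-sided exact sign-flip permutation P of 0.0039 and 0.0105 after adjustment over the 78 pairs of protein-coding genes. The unadjusted P is the smallest that 9 libraries allow. The sign-flip tests here treat the 9 libraries as independent, although they are 3 replicates of each of 3 lines. Of all 78 pairs, 60.3% passed this test, so a steady ratio was common.

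COX3 was the least frequent of the 3 per base. COX3 over COX2 was 0.268, 0.291, and 0.161 in H1437, 0.179, 0.793, and 0.425 in H23, and 0.123, 0.225, and 0.181 in PC9, below 1 in each. Its mean log2 ratio was -1.99 ± 0.81 (SD, n = 9; adjusted exact sign-flip permutation P = 0.0105). COX3 over COX1 was 0.784, 0.377, and 0.551 in H1437, 0.782, 1.16, and 0.576 in H23, and 0.624, 0.423, and 0.385 in PC9, with H23 replicate 2 as the exception to a ratio below 1. Its mean log2 ratio was -0.75 ± 0.54 (SD, n = 9; adjusted exact sign-flip permutation P = 0.0169). None of the 3 ratios passed the test across lines (adjusted exact permutation P of 0.983, 0.739, and 0.739 for COX2 over COX1, COX3 over COX1, and COX3 over COX2), nor did any other of the 78 (0%; 6.41% had an unadjusted P below 0.05).

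On the CDS rows the order was less clear. COX2 over COX1 was above 1 in 7 of 9 untreated libraries (0.805 to 2.87, median 1.66). COX3 over COX1 was below 1 in 7 of 9 (0.301 to 2.25), with H1437 replicate 1 at 2.09 and PC9 replicate 1 at 2.25, the pair of libraries with most tRNA gene rows at 0. Its mean log2 ratio of -0.42 had an exact sign-flip permutation P of 0.25 (n = 9), and did not pass, while 67.9% of the 78 pairs passed on the CDS rows. COX3 over COX2 was below 1 in 8 of 9. Over all 17 libraries, COX2 ranked first of the 13 protein-coding genes by gene-row reads per base in 13 libraries and by CDS-row reads per base in 4. The median rank on the gene rows was 4 for COX1 and 7 for COX3. These ranks also use reads divided by gene length.

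**Figure D2:**
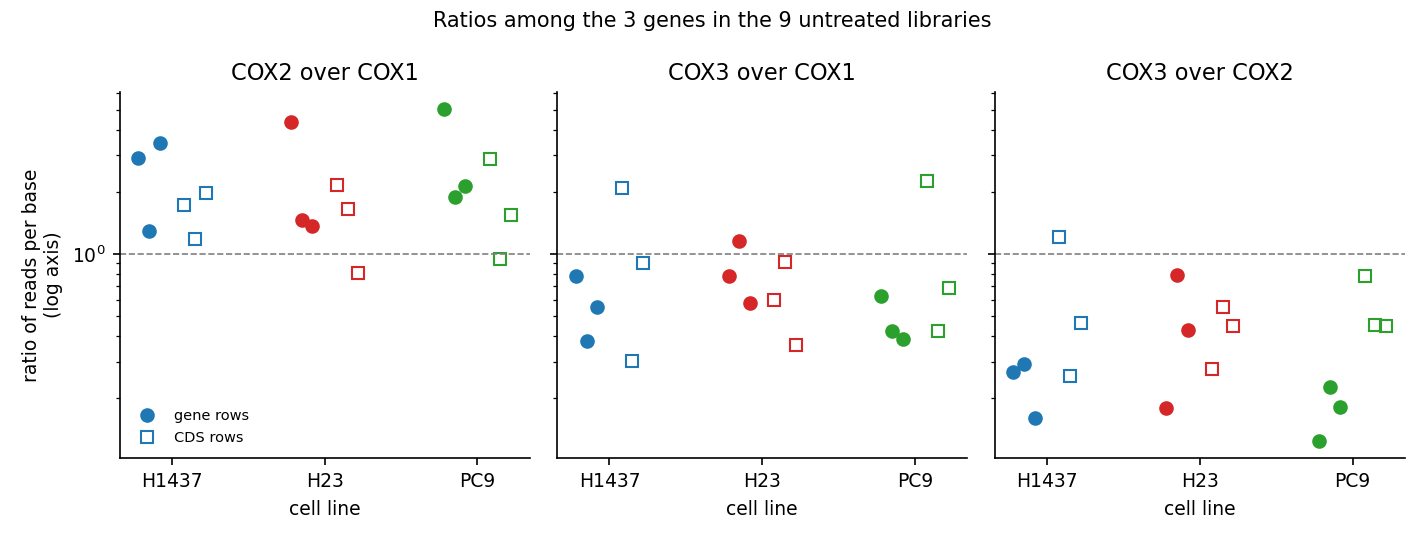
Ratios of reads per base (log axis) between pairs of the 3 genes in the 9 untreated libraries, by cell line. Filled circles are gene rows, open squares CDS rows, and the dashed line marks equal reads per base. COX2 over COX1 lies above the line in all 9 libraries on the gene rows and in 7 on the CDS rows.

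Across all 17 libraries, the genes whose log2 gene-row reads per 1000000 total reads ran most like COX1 were CYTB (Pearson's r = 0.969), the apocytochrome b gene of complex III, and ND1 (0.968), a complex I subunit gene. For COX2 they were ND1 (0.968) and CYTB (0.957), and for COX3 they were ND4 (0.990), also of complex I, and ATP6 (0.982), the ATP synthase gene that lies before it. COX1, COX2, and COX3 ran with each other at 0.924 to 0.960. These 17 points share the lines and the share of mapped reads of each library, so the values are a description. Together the 3 genes held 24.3% to 54.4% of the gene-row reads of the 13 protein-coding genes, with a median of 39.1%.

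The share of the CDS-row reads that also stood on the gene row was highest in H23 for COX3. It was 19.3%, 46.2%, and 27.3% in H1437, 58.1%, 76.5%, and 72.2% in H23, and 13.5%, 34.3%, and 23.4% in PC9. Each H23 library lay above each library of the other lines. The mean was 68.9% ± 9.62 in H23 (SD, n = 3), against 30.9% ± 13.8 in H1437 and 23.7% ± 10.4 in PC9. The gaps of 38.0 and 45.2 percentage points each had an exact permutation P of 0.1, the smallest possible. Across the 3 lines, the exact permutation P was 0.0214. Adjusted over the 31 genes whose share could be tested it was 0.627, and it did not pass. COX3 was the 1 gene of these 31 with an unadjusted P below 0.05 (3.23%), and each H23 library lay above each H1437 library for 9.68% of the 31 and above each PC9 library for 9.68%.

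The control libraries were not among the 9 untreated libraries of this test and lay on the same side. Their COX3 shares were 66.2% and 73.4% in H23, 56.8% in H1437, and 20.9% in PC9. The H1437 control lay above each H1437 replicate (19.3% to 46.2%) and only just below the lowest H23 library (58.1%). Over the 5, 4, and 4 untreated and control libraries, the mean was 69.3% in H23, 37.4% in H1437, and 23.02% in PC9, and H23 still did not overlap the others (exact permutation P = 0.00794 for each of these 2 pairs). Over the 30 genes whose share could be tested in these libraries, 3.33% lay above H1437 and 6.67% above PC9 in this way. The P across lines was then 7.55e-04 by the exact permutation test and 0.0226 after adjustment over these 30 genes, of which 3.33% passed. These tests include the 9 libraries in which the COX3 split had already been seen, so they are not independent of it. COX1 and COX2 were not split in this way: their shares were 34.3% to 60.5% and 40.6% to 89.2% over the 9 untreated libraries, with exact permutation P values across lines of 0.468 and 0.961 (adjusted, 1 for both).

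**Figure D3:**
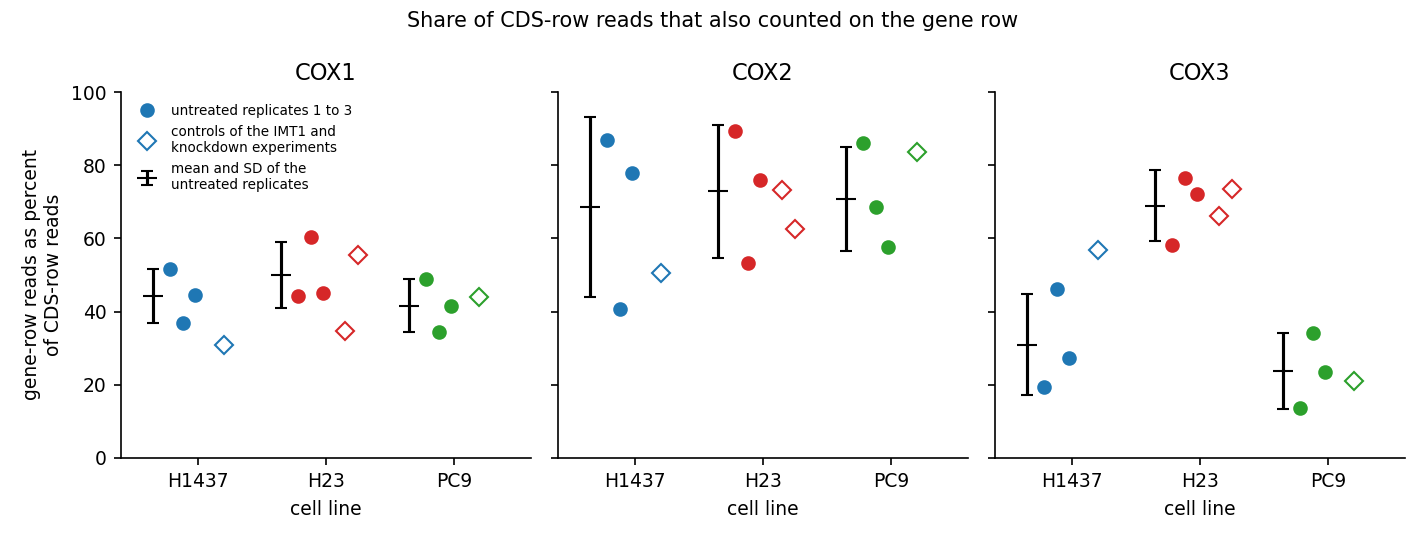
Gene-row reads as a percent of CDS-row reads for COX1, COX2, and COX3, by cell line. Filled circles are untreated replicates, open diamonds are controls of the other experiments, and bars show the mean and SD of the 3 untreated replicates. The 5 H23 points of COX3 lie at 58.1% to 76.5%, above all 8 points of the other lines.

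Because COX3 has ATP6 before it and TRNG directly after it, the reads that separate its 2 rows have 1 possible partner under the counting scheme, TRNG. This reading of the rows was chosen after the values were seen and is given without a test. Such reads numbered 2139, 85, and 80 in H1437, 49, 251, and 316 in H23, and 83, 263, and 95 in PC9. Per 1000000 total reads they came to 340, 161, and 118 in H1437, 401, 417, and 533 in H23, and 166, 480, and 131 in PC9. The H23 mean of 450.4 ± 72.3 thus stood against 206 ± 118 in H1437 and 259 ± 192 in PC9 (SD, n = 3), a narrower gap than that of the reads on COX3 alone. In each of the 17 libraries these reads fit within the border reads of TRNG, the reads on its tRNA row that were missing from its gene row. They made up 44.1% of them in H23 replicate 3 and 100% in PC9 replicate 1.

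COX1 lies between 2 tRNA genes of the other strand, and its border reads were split between them unevenly. Reads that touched COX1 and TRNY, the tRNA before it, numbered 833, 442, and 119 in H1437, 120, 370, and 1789 in H23, and 9, 410, and 112 in PC9. Reads that touched COX1 and TRNS1, the tRNA after it, numbered 73, 30, and 7 in H1437, 26, 88, and 303 in H23, and 2, 104, and 17 in PC9. The TRNY side was the larger in 17 of 17 libraries, by 1.31 to 18.2 times. The other COX1 border reads, 5.26% to 77.4% of the total, touched more than 1 tRNA gene or further genes. The strand of these reads was not analyzed here, so reads of the COX1 message and reads antisense to it cannot be told apart.

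For COX2, the reads that also touched TRND, the tRNA directly before it, numbered 115, 169, and 36 in H1437, 17, 426, and 235 in H23, and 7, 104, and 74 in PC9. They made up 22.99% to 83.8% of the COX2 border reads over the 17 libraries. Reads that touched TRNK and a neighboring coding gene, COX2 or ATP8, were fewer, at 1 to 152 per library.

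**Figure D4:**
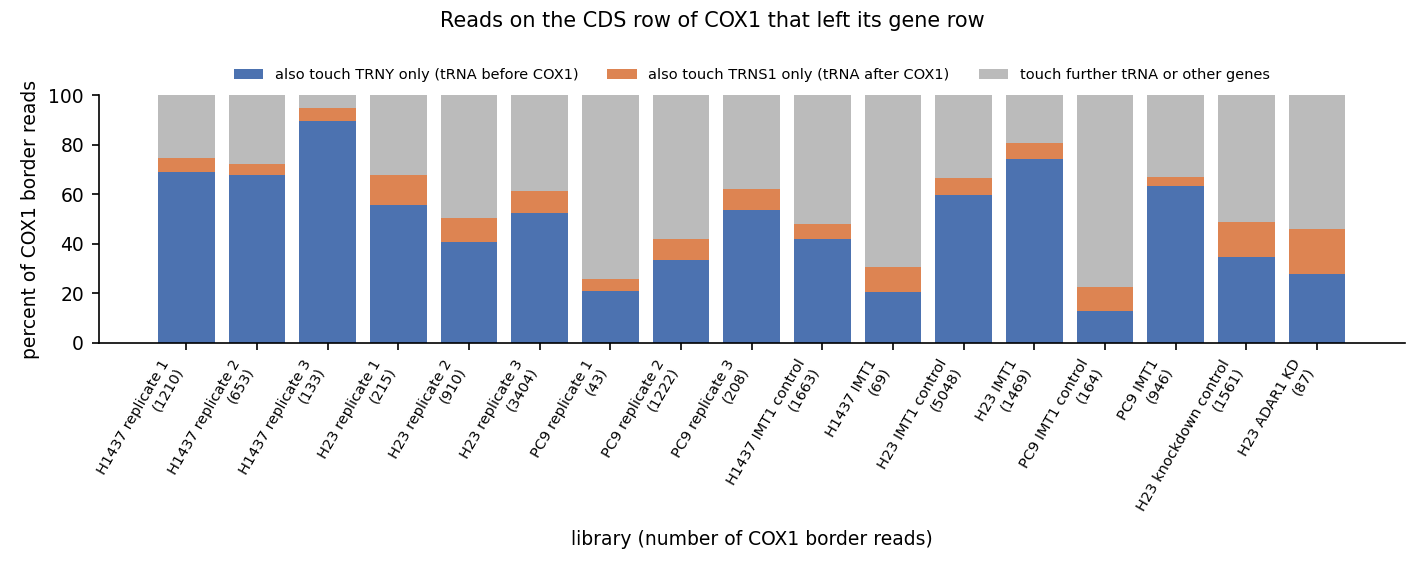
Composition of the reads counted on the CDS row of COX1 but not on its gene row, in percent, in each of the 17 libraries. Blue is reads that also touch TRNY as their only tRNA gene, orange those that also touch TRNS1 as their only tRNA gene, and gray the rest. The number of such reads is under each bar, and blue exceeds orange in all 17.

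IMT1 was compared with its control in each line, with 1 library on each side. COX3 was lower with IMT1 in all 3 lines, while COX1 and COX2 were lower in H1437 and H23 and higher in PC9. COX1 had 1613 gene-row reads per 1000000 total reads without and 468 with IMT1 in H1437, 4871 and 2393 in H23, and 191 and 428 in PC9. COX2 had 889 and 181 in H1437, 4071 and 1175 in H23, and 227 and 454 in PC9. COX3 had 361 and 205 in H1437, 2367 and 731 in H23, and 69.6 and 43.0 in PC9, where the 95% Poisson intervals of 51.1 to 92.5 and 27.0 to 65.1 overlapped. These intervals cover counting error only, since PCR reads are not independent molecules.

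With a pseudocount of 0.5, the log2 ratios of IMT1 over control in H1437, H23, and PC9 were -1.78, -1.02, and 1.16 for COX1, -2.29, -1.79, and 1.00 for COX2, and -0.82, -1.69, and -0.68 for COX3. Their means were -0.55 ± 1.53, -1.03 ± 1.77, and -1.06 ± 0.55 (SD, n = 3 lines), with exact sign-flip permutation P values of 0.75, 0.5, and 0.25, where 0.25 is the smallest that 3 pairs allow. Of all 37 genes, 21.6% were lower in all 3 lines, as COX3 was, and 37.8% were lower in H1437 and H23 and higher in PC9, as COX1 and COX2 were. Taken line by line, 70.3%, 81.1%, and 51.4% of the genes were lower in H1437, H23, and PC9. The other 10 protein-coding genes had median log2 ratios of -0.44, -1.49, and 1.30 in these lines. The edgeR fit with the line as a block gave -0.59 ± 0.97, -1.10 ± 1.06, and -1.07 ± 0.87 (SE) against total reads (adjusted P 0.877, 0.854, and 0.854; 0% of 33 genes called), and -0.20 ± 0.88, -0.68 ± 0.92, and -0.71 ± 1.00 against the other mitochondrial genes (adjusted P 0.972 for each; 0% called). Unadjusted, 3 and 2 genes (9.09% and 6.06%) had an edgeR P below 0.05, and DESeq2 called 3 genes on either scale. Without the PC9 pair, edgeR called 5 of 30 genes against total reads, with COX2 among them at -2.04 (adjusted P 0.0395).

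The untreated libraries give the spread against which these pairs stand. On the gene rows, the COX2 level with IMT1 was below each of the 4 untreated or control libraries of H1437 and each of the 5 of H23. It was above 3 of 4 in PC9. The COX1 level with IMT1 was below 2 of 4 in H1437 and 3 of 5 in H23, and COX3 was below 1 of 4 in H1437, 4 of 5 in H23, and 2 of 4 in PC9. Counted on the CDS rows, COX2 with IMT1 was below only 2 of 4 in H1437, 5 of 5 in H23, and 1 of 4 in PC9. On the CDS rows the opposite direction in PC9 was wider for COX1, which went from 434 to 2278 there and from 5228 to 614 in H1437, and 40.5% of all genes ran down in H1437 and H23 and up in PC9 on these rows. ChrMT held 5.30% of all reads without and 1.14% with IMT1 in H1437, 30.5% and 9.83% in H23, and 6.73% and 3.94% in PC9. Per 1000000 mapped reads the mean log2 ratios turned to 0.99 for COX1, with all 3 lines higher, and to 0.51 and 0.48 for COX2 and COX3 (exact sign-flip permutation P of 0.25, 1, and 0.5). Of the gene-row counts, COX1 held 4.75% without and 5.20% with IMT1 in H1437, 4.34% and 4.11% in H23, and 0.338% and 1.69% in PC9.

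The gene-row share of COX3 was 56.8% without and 80.8% with IMT1 in H1437, 66.2% and 73.5% in H23, and 20.9% and 24.4% in PC9, higher in each line. In PC9 the 95% Wilson intervals for counting error, 16.1% to 26.7% and 16.7% to 34.2%, overlapped. How many other genes rose in each line was not counted. The share of COX1 was 30.9% and 76.3% in H1437, 34.7% and 49.5% in H23, and, in the other direction, 44.0% and 18.8% in PC9. In PC9, reads that touched COX1 and TRNY numbered 21 without and 601 with IMT1, and in H1437 they numbered 697 and 14. On the gene rows, the ratio of COX2 to COX1 per base was lower with IMT1 in each line, at 1.24 and 0.873 in H1437, 1.88 and 1.11 in H23, and 2.67 and 2.39 in PC9. On the CDS rows it was higher with IMT1 in H1437 (0.758 and 1.29) and H23 (0.893 and 1.03) and lower in PC9 (1.41 and 0.999). The number of other gene pairs whose gene-row ratio ran the same way in each line was not counted. COX2 was below COX1 per base in 1 of 17 libraries on the gene rows, that of H1437 with IMT1, and in 5 of 17 on the CDS rows, not including that library.

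**Figure D5:**
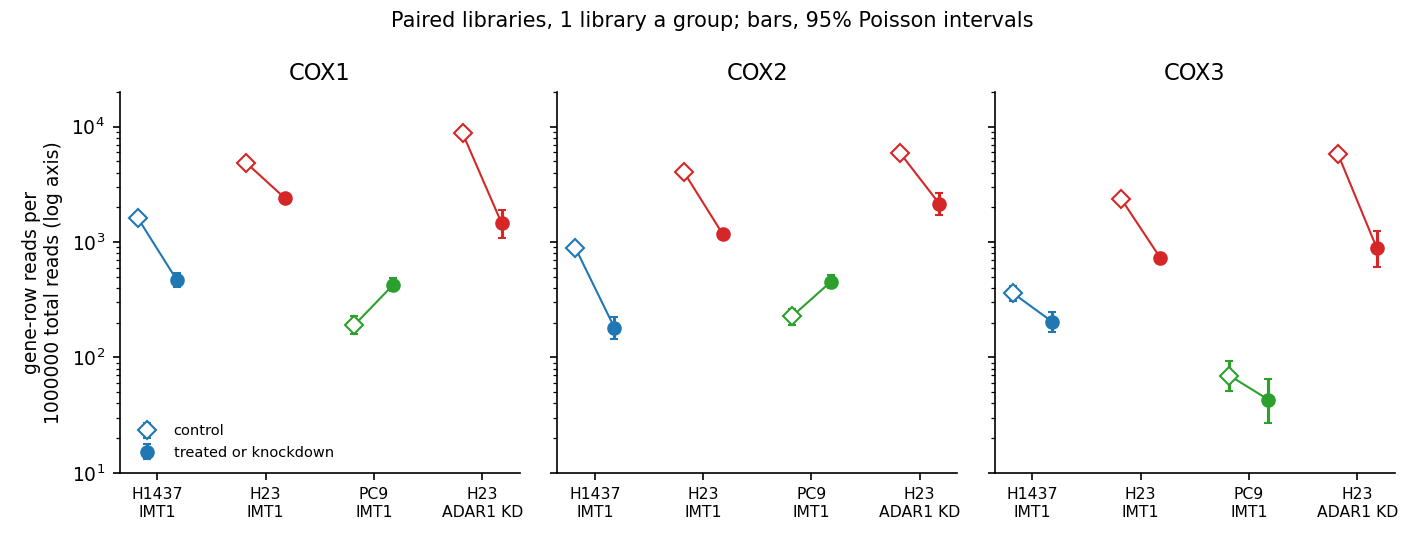
Gene-row reads per 1000000 total reads (log axis) of COX1, COX2, and COX3 in the 3 IMT1 pairs and the ADAR1 KD pair. Open diamonds are controls, filled circles treated or knockdown libraries, and bars 95% Poisson intervals for counting error. COX1 and COX2 run down in H1437 and H23 and up in PC9 with IMT1, and all 3 genes run down with ADAR1 KD.

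ADAR1 KD was compared with its control in H23, with 1 library each and therefore no test. The ADAR1 message is nuclear and was not measured here, so the knockdown could not be checked from these counts. The paper shows a Western blot of ADAR1 in H23 for its siRNA knockdown. The knockdown library was the smallest of the 17, with 37113 total reads, and held 54 COX1, 80 COX2, and 33 COX3 gene-row reads. Per 1000000 total reads, COX1 was 1455 (95% Poisson interval, 1093 to 1898) against 8740 (8355 to 9139) in the control, a ratio of 6.01 (exact interval, 4.58 to 8.03). COX2 was 2156 (1709 to 2683) against 5901 (5585 to 6230), a ratio of 2.74 (2.18 to 3.48). COX3 was 889 (612 to 1249) against 5856 (5541 to 6183), a ratio of 6.59 (4.67 to 9.61). The COX2 interval lay below those of COX1 and COX3, but these intervals cover counting error only, and no replicate stands behind the difference.

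All 3 genes were more than 2-fold lower, as were 92.9% of the 28 genes with at least 10 reads in either library. ChrMT held 11.0% of the knockdown reads against 47.2% in the control. As a share of the gene-row counts, COX1 was 3.78% against 5.81%, COX2 was 5.59% against 3.92%, and COX3 was 2.31% against 3.89%. None of the 3 was past 2-fold lower on that scale, against 32.1% of the 28 genes, and none was past 2-fold higher, against 7.14%. The control had the highest mapped share of the 17 libraries. Against the 4 H23 libraries of the other experiments, the log2 ratios were -1.19, -0.37, and -0.67, and the level of each of the 3 genes in the knockdown library was within their range. COX2 per base was 3.34 times COX1 in the knockdown library and 1.52 times in the control. The gene-row share of COX3 was 73.3% and 73.4%, within the range of the untreated H23 libraries.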

How the data were processed

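Members, gene lists, and tests were chosen with earlier results of these data known. The authors base-called nanopore reads with Dorado, mapped them with minimap2 2.17-r941, and deposited raw counts per annotated row from featureCounts (minimum overlap of 6 bases, long-read mode) and total and mapped read counts per library from SAMtools 1.10, with the percent mapped as the authors rounded it. One passage of the methods allows reads over several features and another leaves them out. The deposited counts obey the latter in each inequality checked. All 37 gene names and positions matched RefSeq.

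Counts were scaled to 1000000 total reads, and ratios used counts per base with a pseudocount of 0.5. Exact permutation and sign-flip tests (Python 3.11.15) were two-sided, with Benjamini-Hochberg adjustment over all genes or all 78 gene pairs. edgeR 4.0.16 (R 4.3.3) was run on genes that reached 10 counts in 3 or more libraries, with DESeq2 1.42.0 as an alternative tool. Scripts were tested on simulated data. The edgeR check used a lower dispersion than the 1.70 and 2.18 fitted here, so it does not show how edgeR performs at those values. Named genes were the 3 genes, their neighbors, and the 2 genes most correlated with each. All 3 same-numbered pairs of H1437 and PC9 replicates correlated (0.509 to 0.928 over 35 genes), while those with H23 varied (-0.786 to 0.515). Differently numbered pairs were not compared and the labels state no pairing, so these values cannot show that the numbers mark pairs. No 2 replicates agreed within sampling noise. Alternatives changed the row, denominator, scale, pseudocount, filter, tool, tRNA genes, controls, block, and each library. Leaving out replicate 1 of all lines and fitting H1437 and PC9 alone were added after seeing the data. Strands were not analyzed here.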

Additional observations from a re-analysis of the deposited data

Results flagged for a closer look

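COX1 and COX2 were higher with IMT1 in PC9 and lower in H1437 and H23. The log2 ratio of the gene rows in PC9 was 1.16 for COX1 against -1.78 in H1437 and -1.02 in H23, and 1.00 for COX2 against -2.29 and -1.79. On the CDS rows it was 2.39 for COX1 against -3.09 and -1.54, and 1.89 for COX2 against -2.33 and -1.32. The same pattern held on the gene rows for 7 of the other 10 protein-coding genes and 37.8% of all 37 genes. It held on the CDS rows for 6 of these 10 and 40.5% of all 37, so it was not particular to COX1 and COX2. With 1 library on each side of a pair, the difference between lines was not tested.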

How the results depend on the processing

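Of 618 values recomputed under an alternative, 523 were classed as unchanged. For adjusted P values across lines only the side of the threshold was compared, and for the mean log2 ratios with IMT1 only the direction. Exact tests between 2 lines of 3 libraries each could not pass, so an unchanged side there carries no information. Relative to total reads, H23 over H1437 and over PC9 were positive for all 3 genes in each alternative run. Calls appeared with DESeq2 (log2 fold changes of 2.96, 2.94, and 3.65 for COX1, COX2, and COX3 over H1437, and 2.39 and 3.39 for COX2 and COX3 over PC9), without the tRNA genes (2.96, 2.94, and 3.65 over H1437 and 3.39 for COX3 over PC9), and with the control libraries added (2.91 and 3.88 for COX2 and COX3 over H1437, and 3.43, 3.11, and 4.58 over PC9). Over all genes, edgeR called 0 in each main comparison. Relative to total reads, for H23 over H1437 and PC9, DESeq2 called 13 and 10 of 35 genes. Without tRNA genes edgeR called 13 and 9 of only 14, so most genes passed there. With the controls it called 10 and 13 of 36. Relative to the other mitochondrial genes, DESeq2 called 4 and 2 of 35, edgeR without tRNA genes 6 and 0 of 14, and with the controls 3 and 10 of 36. For H1437 over PC9 alone with the replicate block edgeR called 10 of 33, none of the 3 genes among them. For IMT1, DESeq2 called 3 of 33 on either scale and edgeR without tRNA genes 2 of 14 relative to total reads. The adjusted P across lines was 0.0309, 0.0166, and 0.0169 for the levels and 0.0226 for the COX3 gene-row share once the control libraries were added (exact permutation tests with Benjamini-Hochberg adjustment). COX3 over COX1 did not pass on the CDS rows (-0.42) or without replicate 1 of all 3 lines (-0.90).

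Leaving out 1 library gave calls for H23 over the other lines only without PC9 replicate 2, and the log2 fold changes then ranged over the left-out libraries from 2.36 to 3.96 (COX1, the highest without H1437 replicate 2), 2.78 to 3.22 (COX2), and 3.32 to 4.13 (COX3) over H1437, and from 1.94 to 4.29, 2.01 to 3.64, and 2.92 to 5.05 (COX1, COX2, and COX3) over PC9. H1437 over PC9 changed sign relative to total reads, with ranges of -1.42 to 1.33, -0.92 to 0.70, and -0.74 to 1.41, with the control libraries added (0.72, 0.20, and 0.69), with the replicate block (0.0338 for COX1 and 0.27 for COX3), and in H1437 and PC9 alone with the block (0.0557 and 0.26). The block changed no call of the 3 genes. Relative to the other mitochondrial genes, signs turned for H23 over H1437 with DESeq2 (-0.29 for COX1 and -0.28 for COX2) and with CDS, rRNA, and tRNA rows (-0.65 for COX3), while COX3 was 2.14 without a filter, 2.72 with the controls, and 2.56 without replicate 1 of all lines, against 0.91. For H23 over PC9 they turned with DESeq2 (-0.39) and without tRNA genes (-0.0496) for COX1, and for COX2 without a filter (1.02), with CDS rows (0.69), with the controls (1.42, where COX3 passed at 2.85), and without replicate 1 of all lines (0.98). The ranges without 1 library were -0.0663 to 1.39 for COX1 and -0.72 to 1.00 for COX2. For H1437 over PC9 they turned with CDS rows (0.37, 0.28, and 0.68), with the controls (0.36 for COX1 and 0.13 for COX3), and for COX3 with DESeq2 (0.17), without a filter (0.17), and without tRNA genes (0.12), with ranges of -1.51 to 0.0529 for COX2 and -1.01 to 0.34 for COX3.

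With IMT1, the mean log2 ratio turned per 1000000 mapped reads (0.99, 0.51, and 0.48) and, for COX1, without the H1437 pair (range -1.40 to 0.0687). In edgeR the COX1 value ranged from -1.40 to 0.0649 relative to total reads and from -0.42 to 0.57 relative to the other genes, where it was 0.0374 without a filter, 0.0372 without tRNA genes, and 0.0014 on CDS rows. COX2 ranged from -2.04, which passed without the PC9 pair, to -0.40 relative to total reads and from -1.05 to 0.10 relative to the other genes, and was 0.17 on CDS rows. With ADAR1 KD, the log2 ratios of COX1, COX2, and COX3 were -0.49, 0.64, and -0.62 per mapped read, -0.62, 0.51, and -0.75 as shares of gene-row counts, and -1.19, -0.37, and -0.67 against the other H23 libraries, and COX1 was -2.06 on the CDS row. The cause of these changes was not tested. Depth limits the KD library most, at 37113 total reads, and PC9 replicate 1 held the fewest reads on protein-coding genes (272).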
